A study of Mus musculus with 2 samples.

Results

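LIM homeobox genes encode transcription factors that carry a pair of LIM zinc-finger domains ahead of a DNA-binding homeodomain, and the Ldb genes encode the LIM domain-binding cofactors that join such factors into complexes. The genes described here were chosen by name: Lhx1, Lhx2, Lhx6, Lhx8, Lhx9, Lmx1a, Lmx1b and Isl1 among the LIM homeobox genes, and the cofactors Ldb1 and Ldb2. They make up 10 of the 43346 gene rows in the tables. The rule that picks them uses no measured value, but the choice was made with earlier results of these data known. The tissue was limb from C57BL/6J mouse embryos at embryonic day 14.5, wild type as far as the labels say, with no treatment named. There were 2 libraries of polyadenylated RNA, labelled as biological replicates 1 and 2 of a single group, each from littermates of mixed sex, so conditions could not be compared. Both carry the same donor identifier, and the labels do not say whether they came from separate litters or which limbs were taken. No p or interval below measures variation beyond these 2 samples, and part of the distance between them may be technical. The intervals for pairs of genes also draw on the variances of other genes. The test between the libraries allows for counting error only.

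In the limb bud, Lmx1b is switched on in dorsal mesenchyme downstream of Wnt7a from the dorsal ectoderm and is known for giving the limb its dorsal pattern, while Lhx2 and Lhx9 are known for supporting outgrowth along with Lmx1b. Isl1 is known in the limb for the start of hindlimb growth and outside it for motor and sensory neurons. An Ldb protein forms dimers and binds LIM domains through its carboxy-terminal part, LIM-only (Lmo) proteins compete for the same contact, Ssbp proteins protect Ldb from breakdown, and the ubiquitin ligase Rlim promotes it.

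Expected counts, the estimated reads assigned to each gene, summed over gene rows to 110172148 in replicate 1 and 103363136 in replicate 2. Levels are given in TPM (transcripts per 1e6), counts scaled by transcript length and by the library total, so that genes can be compared with each other. The limb label was checked against 6 limb mesenchyme genes (Prrx1, Prrx2, Twist1, Msx1, Tbx5 and Tbx4), and 6 of 6 were present, with summed levels of 589 and 769 TPM in replicates 1 and 2. Tbx5 and Tbx4, which mark forelimb and hindlimb, stood at 27.5 ± 2.02 and 37.2 ± 8.39 TPM (SD, n = 2). These libraries are bulk tissue, in which fewer cells of a type and less RNA per cell cannot be told apart.

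A gene was called detected at 1 TPM or more in each library. Of the 10 genes, 8 were detected, against 33.8% of all gene rows and 62.8% of the 21474 protein-coding genes. Because the choice was made with earlier results known, these shares are a description only. Of the LIM homeobox genes outside the chosen set, 0 of 4 were detected. Lmx1a and Lhx1 were the 2 that were not. The levels spanned from 369 TPM for Ldb1 to 0.08 TPM for Lhx1 in the mean of the libraries. Among the 8 LIM homeobox genes, Lmx1b, Lhx2 and Lhx9 together held 87.6% of the summed TPM in replicate 1 and 91.3% in replicate 2.

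**Figure D1:**
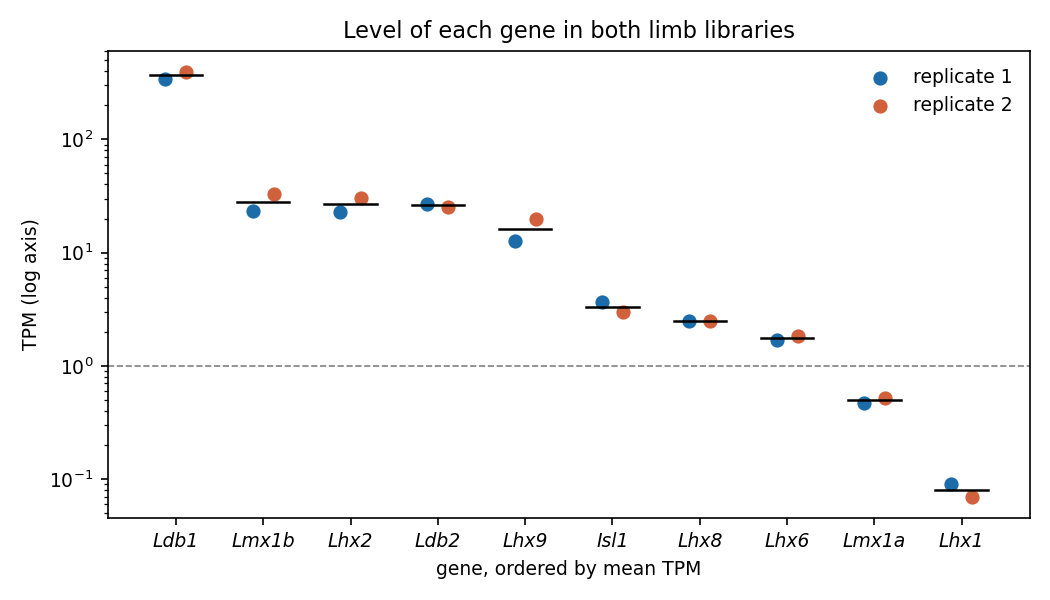
Level of each gene in TPM on a log axis, by gene in order of mean TPM. Points are the 2 libraries, short bars their means, and the dashed line the detection level of 1 TPM. Ldb1 stands at 344 and 394 TPM, Lmx1b, Lhx2, Ldb2 and Lhx9 lie between 12.8 and 32.7 TPM, and Lmx1a and Lhx1 lie under the line.

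Ldb1, the general LIM cofactor of vertebrate embryos, was the most abundant of the 10. It measured 344 TPM in replicate 1 and 394 TPM in replicate 2, a mean of 369 ± 35.1 TPM (SD, n = 2) from 42059 and 43359 counts. That placed it at rank 289 of 21474 protein-coding genes. Its paralogue Ldb2 measured 27.1 and 25.2 TPM, a mean of 26.2 ± 1.37 TPM (SD, n = 2) from 4654 and 3973 counts. The difference between the paralogues was 3.77 on the log2(TPM + 1) scale, with a 95% interval of 3.25 to 4.28 from an intercept-only limma fit. In plain TPM, Ldb1 stood 12.7 times as high as Ldb2 in replicate 1 and 15.6 times in replicate 2. The pair did not overlap between the libraries.

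Ldb1 lies on chromosome 19 (GRCm38, chr19:46031570-46045214, minus strand). Its first 329 bases overlap Pprc1, a protein-coding gene on the opposite strand that was itself at 53.0 and 64.2 TPM. The libraries are stranded, but no source used here says whether strand was used in counting, so reads in that stretch are uncertain. Ldb2 lies on chr5:44472132-44799680, minus strand, and overlaps 11 other annotated genes, all without a descriptive name.

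The 3 most abundant transcripts of Ldb1 differ at the edge of a coding exon, and the sequences there are shown because they decide which carboxy-terminal part the cofactor has. The exon may end before a 6-base segment, it may include the segment and be joined to the last coding exon, or it may run on past the segment into the adjoining intron. In the first line the capitals mark the 6 bases (chr19:46034032-46034037). In the second they mark the first 60 of the 228 coding bases of the last coding exon (chr19:46033114-46033341), and in the third the 60 coding bases of the read-through end (chr19:46033972-46034031). Lower-case letters are the adjoining coding bases, and all 3 lines run 5′ to 3′ on the minus strand of GRCm38.
Ldb1 6-base segment: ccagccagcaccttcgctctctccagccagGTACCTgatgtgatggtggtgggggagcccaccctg
Ldb1 last coding exon: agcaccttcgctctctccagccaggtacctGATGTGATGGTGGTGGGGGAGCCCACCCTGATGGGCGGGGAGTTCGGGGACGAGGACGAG
Ldb1 read-through end: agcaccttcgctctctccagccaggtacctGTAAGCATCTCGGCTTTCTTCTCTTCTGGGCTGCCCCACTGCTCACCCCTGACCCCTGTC

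Transcript shares are the deposited percentages of the TPM of a gene, and a share within a pair of forms is rescaled over the transcripts that cover the place. Of Ldb1 transcripts covering the 6-base segment, those that include it made up 83.1% in replicate 1 and 83.3% in replicate 2, a mean of 83.2% ± 0.115 (SD, n = 2). The last coding exon was in 69.1% and 65.6%, and the read-through end in the other 30.9% and 34.4%. The read-through form stood at 102 and 125 TPM, above the summed level of Ldb2 in each library. The leading transcript, with the 6 bases and the last coding exon, took 49.2% and 44.3% of the TPM of the gene. The leading read-through transcript followed with 28.1% and 30.6%, and the transcript without the 6 bases with 16.2% and 15.4%. The order of the 3 was the same in each library. Ldb2 has a single transcript in the tables.

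The Ldb1 transcripts also start at different places, and the bases before each start are shown because the deposited shares divide between them. Each line gives the 250 bases upstream of a RefSeq start (GRCm38.p6, minus strand, 5′ to 3′), the first at chr19:46045312-46045561 and the second at chr19:46039622-46039871. Capitals mark CCAAT or its reverse complement ATTGG, and GGGCGG, the GC box bound by Sp factors, or its reverse complement CCGCCC. The 2 motifs share no letters in these windows.
Ldb1 first start: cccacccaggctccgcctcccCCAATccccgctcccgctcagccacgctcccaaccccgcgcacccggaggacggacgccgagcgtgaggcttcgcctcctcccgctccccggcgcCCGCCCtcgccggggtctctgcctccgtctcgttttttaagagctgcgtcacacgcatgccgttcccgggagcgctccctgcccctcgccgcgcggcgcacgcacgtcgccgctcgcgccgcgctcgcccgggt
Ldb1 second start: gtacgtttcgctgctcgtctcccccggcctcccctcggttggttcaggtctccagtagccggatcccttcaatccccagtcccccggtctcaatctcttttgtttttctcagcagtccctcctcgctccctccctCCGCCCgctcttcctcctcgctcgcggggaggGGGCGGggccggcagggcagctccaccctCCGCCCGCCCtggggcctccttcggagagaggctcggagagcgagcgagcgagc

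Transcripts that begin within 1000 bases of the first start took 65.7% and 60.1% of Ldb1 TPM, or 226 and 237 TPM. Those at the second start took 29.0% and 31.2%, or 99.9 and 123 TPM. The third RefSeq start had no transcript within that distance. The first window lies wholly within the annotated body of Pprc1 on the opposite strand (chr19:46044886-46072915). It holds 1 CCAAT and 1 GC box match and 40 CG pairs. The second holds no CCAAT, 4 GC box matches and 22 CG pairs. Of 32536 RefSeq windows of the same length, 33.8% hold CCAAT and 33.0% hold the GC box on either strand, and the median window has 6 CG pairs. A match is a description of the letters, not a bound site.

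Lmx1b, the dorsal determinant, was the most abundant LIM homeobox gene. It measured 23.5 TPM in replicate 1 and 32.7 TPM in replicate 2, a mean of 28.1 ± 6.46 TPM (SD, n = 2) from 6935 and 8959 counts. Its paralogue Lmx1a, known for the roof plate of the neural tube and for dopaminergic neurons, measured 0.47 and 0.52 TPM from 109 and 108 counts. The difference was 4.27 on the log2(TPM + 1) scale (95% interval 3.76 to 4.77, limma), and the ratio of mean TPM was 56.8. Wnt7a, the ectodermal signal upstream of Lmx1b, measured 3.47 and 6.23 TPM, and En1, which restricts Wnt7a to the dorsal side, 5.33 and 4.74 TPM. They rested on 773 and 643 counts for Wnt7a and 970 and 794 for En1. Wnt7a was thus higher in replicate 2 by TPM but not by counts.

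Lmx1b (chr2:33560965-33640511, minus strand) had a pair of transcripts with reads, of which 1 carries 21 coding bases, or 7 codons, after the homeodomain that the other lacks. The annotated models differ elsewhere too, with 1420 bases in all for the transcript with the segment and 4790 for the one without, so the shares are of whole transcripts. The segment is shown in capitals within its flanking coding sequence (chr2:33565061-33565081, minus strand, GRCm38), because the division between the forms was nearly equal in the libraries.
Lmx1b 21-base segment: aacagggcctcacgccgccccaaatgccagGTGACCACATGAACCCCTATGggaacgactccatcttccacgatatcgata
The form with the segment took 19.7% of Lmx1b TPM in replicate 1 and 18.9% in replicate 2, a mean of 19.3% ± 0.575 (SD, n = 2). The form without the segment took 80.3% and 81.1%. The third transcript was listed at 0 in each library.

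The bases before the Lmx1b start are shown because an abundant noncoding transcript begins inside them on the other strand (chr2:33641099-33641348, minus strand, 5′ to 3′, RefSeq GRCm38.p6, with the capitals as for Ldb1).
Lmx1b start: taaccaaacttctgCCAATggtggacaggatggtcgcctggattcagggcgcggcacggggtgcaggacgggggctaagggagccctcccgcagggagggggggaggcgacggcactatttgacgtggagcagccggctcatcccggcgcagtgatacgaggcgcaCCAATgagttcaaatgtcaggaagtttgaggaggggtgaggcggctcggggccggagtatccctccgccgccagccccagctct
The window holds 2 CCAAT matches, no GC box and 19 CG pairs. C130021I20Rik, annotated as an antisense RNA on the plus strand (chr2:33641193-33646354), begins within it. It stood at 93.5 and 112 TPM from 16256 and 19107 counts, above Lmx1b in each library. The M21 bodies of the genes do not overlap and lie 682 bases apart.

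Lhx2, a factor of limb outgrowth and of the forebrain, eye and hair follicle, measured 23.0 TPM in replicate 1 and 30.3 TPM in replicate 2. Its mean was 26.7 ± 5.16 TPM (SD, n = 2) from 3530 and 4453 counts. Lmx1b, Lhx2 and Ldb2 were neighbours in the order of levels, and they did not differ beyond their spread. Lmx1b minus Lhx2 was 0.07 on the log2(TPM + 1) scale, with a 95% interval of -0.48 to 0.61, and Lhx2 minus Ldb2 was 0.01, with an interval of -0.47 to 0.50. Lhx2 was below Ldb2 in replicate 1 and above it in replicate 2. These intervals allow differences of about 0.5 in either direction, so they do not show that the levels are equal.

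Lhx2 (chr2:38339281-38369733, plus strand) has a pair of RefSeq starts. Transcripts beginning near the downstream start took 68.5% and 72.9% of Lhx2 TPM, and those near the upstream start 16.9% and 19.8%. The leading transcript of the gene is of the downstream group and took 65.3% and 69.1%. The coding transcript of the upstream group has a coding sequence of 1095 bases against 1218 in the leading one, and took 11.7% in each library. The 250 bases before the upstream start hold 4 GC box matches, no CCAAT and 25 CG pairs. Those before the downstream start, which overlap an exon, hold neither motif and 24 CG pairs.

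Lhx9, the closest relative of Lhx2, measured 12.8 TPM in replicate 1 and 19.8 TPM in replicate 2, a mean of 16.3 ± 4.94 TPM (SD, n = 2) from 2956 and 3348 counts. Lhx2 was higher than Lhx9 by 0.70 on the log2(TPM + 1) scale (95% interval 0.12 to 1.27, limma), and higher in each library. Ldb2 was higher than Lhx9 by 0.68 (interval 0.14 to 1.22). Without the filter on low values, and with intervals held jointly over the pairs, the intervals of both of these differences included 0.

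Lhx9 (chr1:138825186-138848577, minus strand) has a pair of alternative last coding exons, which are shown because only 1 of them completes the homeodomain. In capitals, the first line gives the first 60 of 255 coding bases of the exon at chr1:138831370-138831624. The second gives the 54 coding bases of the exon at chr1:138828657-138828710. Both follow the same lower-case coding bases, 5′ to 3′ on the minus strand of GRCm38.
Lhx9 homeodomain end: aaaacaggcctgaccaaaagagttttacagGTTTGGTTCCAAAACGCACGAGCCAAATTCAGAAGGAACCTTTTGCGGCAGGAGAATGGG
Lhx9 other end: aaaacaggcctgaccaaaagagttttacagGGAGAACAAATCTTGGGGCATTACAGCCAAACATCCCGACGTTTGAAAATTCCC

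The codons for tryptophan, phenylalanine, glutamine and asparagine, which stand in a row in the DNA-recognition helix of most homeodomains, were found in the translation of both transcripts that use the first end. They were not found in that of the leading transcript with the other end. Among transcripts with a complete end, the homeodomain end was in 66.9% of TPM in replicate 1 and 76.4% in replicate 2, a mean of 71.6% ± 6.72 (SD, n = 2). The other end, known from earlier work as a truncated form, made up 33.1% and 23.6%, or 3.74 and 3.40 TPM. The form with the helix was the larger in each library, at 7.55 against 3.74 TPM in replicate 1 and 10.99 against 3.40 TPM in replicate 2.

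Isl1, Lhx8 and Lhx6 formed a lower tier. Isl1 measured 3.69 and 2.96 TPM, a mean of 3.33 ± 0.516 TPM (SD, n = 2) from 383 and 280 counts. Lhx9 stood above it by 1.97 on the log2(TPM + 1) scale (95% interval 1.43 to 2.52, limma). Lhx8, known for craniofacial mesenchyme and forebrain cholinergic neurons, measured 2.47 and 2.49 TPM from 260 and 233 counts. Lhx6, known for the same mesenchyme and for cortical interneurons, measured 1.69 and 1.82 TPM from 272 and 263 counts. Isl1 minus Lhx8 was 0.31 (interval -0.13 to 0.74) and Lhx8 minus Lhx6 0.34 (interval -0.08 to 0.76), and both intervals included 0. Isl1 was still above Lhx8 and Lhx8 above Lhx6 in each library, and neither pair overlapped between the libraries. The intervals rest on variances moderated over all genes fitted, not on the spread of these genes alone.

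Isl1 (chr13:116298281-116309689, minus strand) is spliced with or without 69 coding bases, 23 codons, known as the difference between Isl1 alpha and the shorter Isl1 beta. The segment is shown in capitals because, of the 5 segments and ends compared, its share differed most between the libraries (chr13:116301710-116301778, minus strand, GRCm38).
Isl1 69-base segment: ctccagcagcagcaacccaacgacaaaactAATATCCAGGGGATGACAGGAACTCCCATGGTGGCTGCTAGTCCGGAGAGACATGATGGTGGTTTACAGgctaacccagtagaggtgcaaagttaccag
Of transcripts that cover the place, those with the segment made up 85.7% of TPM in replicate 1 and 53.6% in replicate 2. The form without it rested on 29.9 and 69.8 estimated counts. Its deposited credibility bounds, 0.17 to 0.73 TPM in replicate 1 and 0.69 to 1.41 TPM in replicate 2, overlapped. The second transcript that carries the segment is annotated as a retained intron with no coding sequence, and is included in the share with the segment. It had 31.2 counts in replicate 1 and 2.76 in replicate 2. The coding transcript with the segment took 41.4% of Isl1 TPM in replicate 1 and 37.2% in replicate 2. The coding transcript without it took 10.8% and 34.7%. The mean share with the segment was 69.7% ± 22.7 (SD, n = 2).

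**Figure D2:**
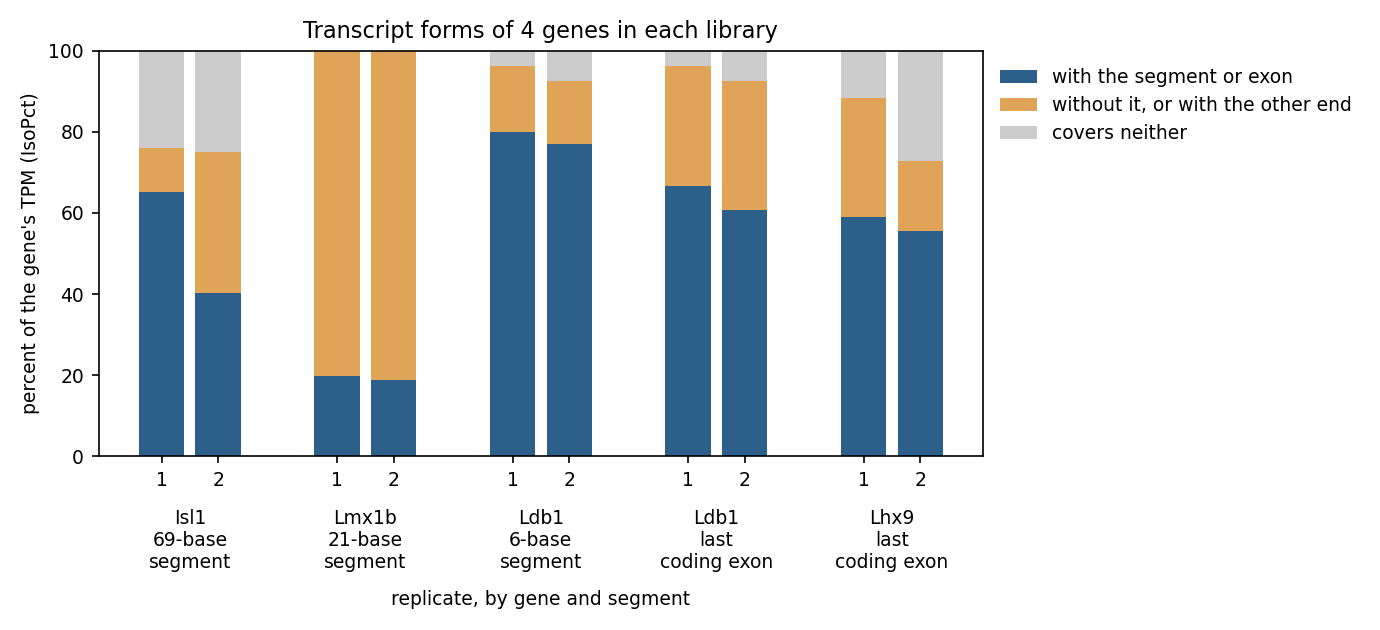
Share of transcript forms in the TPM of Isl1, Lmx1b, Ldb1 and Lhx9, in percent, for each library. Blue is the form with the segment or exon named under the bars, orange the form without it or with the other end, and grey transcripts that cover neither. Lmx1b and the 6-base segment of Ldb1 divide nearly alike in the libraries, and Isl1 does not.

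The markers of other tissues in which these genes are known were read in the same libraries. Of 12 neuron markers 7 were detected, led by Tubb3, Stmn2 and Nefl at 9.40, 6.35 and 6.06 TPM, and their summed level was 38.3 TPM in replicate 1 and 30.5 TPM in replicate 2. Of 9 markers of motor neurons and the central nervous system none was detected, with sums of 1.96 and 0.66 TPM. Among these the motor neuron marker Mnx1 had 6 and 7 counts, and Chat, the enzyme that makes acetylcholine, had 4 and 1. Nkx2-1, a marker of the ventral forebrain, had 28 counts in replicate 1 and 1 in replicate 2, whereas the ratios of replicate 2 to replicate 1 in scaled counts were 1.05 for Lhx6 and 0.970 for Lhx8. The part of these cells in the levels of Isl1, Lhx6 and Lhx8 was not tested. Of 6 markers of epidermis and hair placode 5 were detected, led by Krt5 and Krt14 at 285 and 219 TPM on average. Their summed level was 611 TPM in replicate 1 and 464 TPM in replicate 2. The part of epidermis in the level of Lhx2 was not tested.

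Lmx1a and Lhx1 were at the low end. Lmx1a stood below Lhx6 by 0.88 (95% interval 0.45 to 1.32, limma) and above Lhx1 by 0.47 (interval 0.02 to 0.92). Lhx1, known for kidney and head development, measured 0.09 and 0.07 TPM on 17 counts in each library, for which the exact Poisson interval is 9.90 to 27.2 counts and covers counting error only. With the posterior mean of TPM in place of TPM, Lhx1 rose to 0.23 TPM in each library and the interval of its difference from Lmx1a included 0. Among kidney markers, Pax2 had 8 and 17 counts and Umod had 0 in each library. Six2, which is also made in mesenchyme, was at 24.95 and 38.99 TPM.

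**Figure D3:**
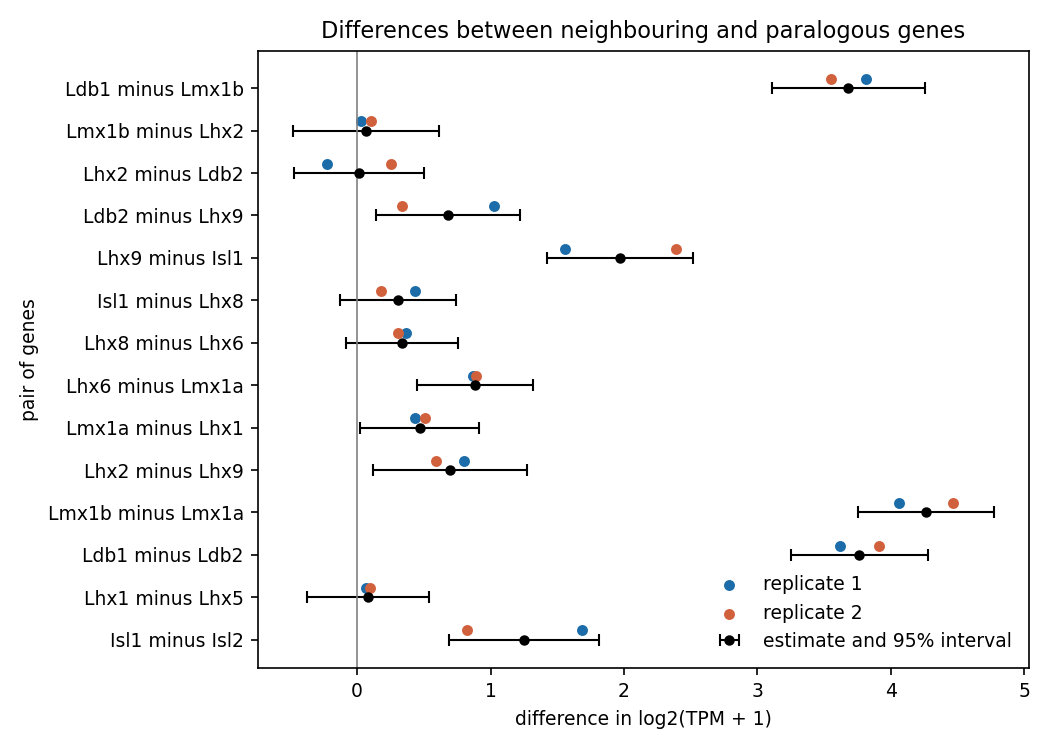
Difference in log2(TPM + 1) between neighbouring genes in the order of levels and between paralogues. Black points and bars are limma estimates with 95% intervals, and coloured points the difference within each library. The interval excludes 0 for 9 of the 14 pairs, and the widest separations are Lmx1b minus Lmx1a at 4.27 and Ldb1 minus Ldb2 at 3.77.

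In all, 14 pairs of genes were compared, either paralogues or neighbours in the order of mean TPM in these same libraries. That order set the direction of the differences between neighbours. The interval excluded 0 for 9 of the 14 pairs, a description only, since no share over other pairs of genes was computed. The pairs Lmx1b and Lhx2, Lhx2 and Ldb2, Isl1 and Lhx8, Lhx8 and Lhx6, and Lhx1 and Lhx5 made up the rest. With intervals held jointly over the pairs by Bonferroni's method, 6 excluded 0, and those of Ldb2 with Lhx9, Lhx2 with Lhx9 and Lmx1a with Lhx1 no longer did.

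Of the LIM homeobox genes outside the chosen set, Lhx3, Lhx4, Lhx5 and Isl2, 0 of 4 were detected. Isl2, the paralogue of Isl1, came nearest at 0.46 and 1.24 TPM from 53 and 80 counts. Isl1 was higher than Isl2 by 1.25 on the log2(TPM + 1) scale (95% interval 0.69 to 1.82, limma). Lhx3 and Lhx4 had at most 3 counts in either library. Lhx5 had 8 counts in replicate 1 and none in replicate 2.

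Genes whose products bind Ldb proteins or compete for them ranged widely in level. Of the LIM-only genes 3 of 4 were detected: Lmo4, widely made in embryonic mesenchyme and epithelium, at 116 and 132 TPM, Lmo1 at 20.2 and 19.7 TPM, and Lmo2, the blood and endothelial member, at 15.0 and 14.8 TPM. Lmo3 was at 1.37 TPM in replicate 1 and 0.78 TPM in replicate 2. Of the partners of Ldb, 4 of 4 were detected, with Ssbp3 highest at 159 and 165 TPM and Rlim lowest at 17.9 and 15.8 TPM.

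The summed TPM of Ldb1 and Ldb2 was 372 and 419, against 67.7 and 90.6 for the 8 LIM homeobox genes. The ratio of Ldb to LIM homeobox TPM was thus 5.49 in replicate 1 and 4.63 in replicate 2. With the 4 LIM-only genes added to the LIM homeobox genes, the ratio was 1.68 and 1.62, a mean of 1.65 ± 0.043 (SD, n = 2). The Ldb sum counts every form, and the read-through form of Ldb1 makes up 102 and 125 TPM of it. These are ratios of transcripts over all cells of the limb, not of proteins or of any 1 cell type.

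Ldb1 also acts in blood with Lmo2, Gata1 and Tal1, and 6 of 6 genes listed for that complex were detected. Gata1 stood at 1.25 and 1.67 TPM, Tal1 at 2.84 and 3.57 TPM and the erythroid factor Klf1 at 2.07 and 2.42 TPM, all far under Ldb1. Tcf3, which is not limited to blood, was highest at 159 and 213 TPM. Of 6 endothelial markers 6 were detected, and their median level was 31.5 TPM, against 26.2 TPM for Ldb2. The part of blood and endothelial cells in the levels of Ldb1 and Ldb2 was not tested.

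The libraries were then compared with each other, gene by gene, on counts scaled with TMM factors. The exact binomial test used compares these libraries and not conditions, and at this depth 60.5% of 20396 genes were called at an adjusted p under 0.05. Of the 10 genes, 6 were called, 4 higher in replicate 2 (30.3% of all genes were called in that direction) and 2 higher in replicate 1 (30.2%). The share called was therefore near the background.

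**Figure D4:**
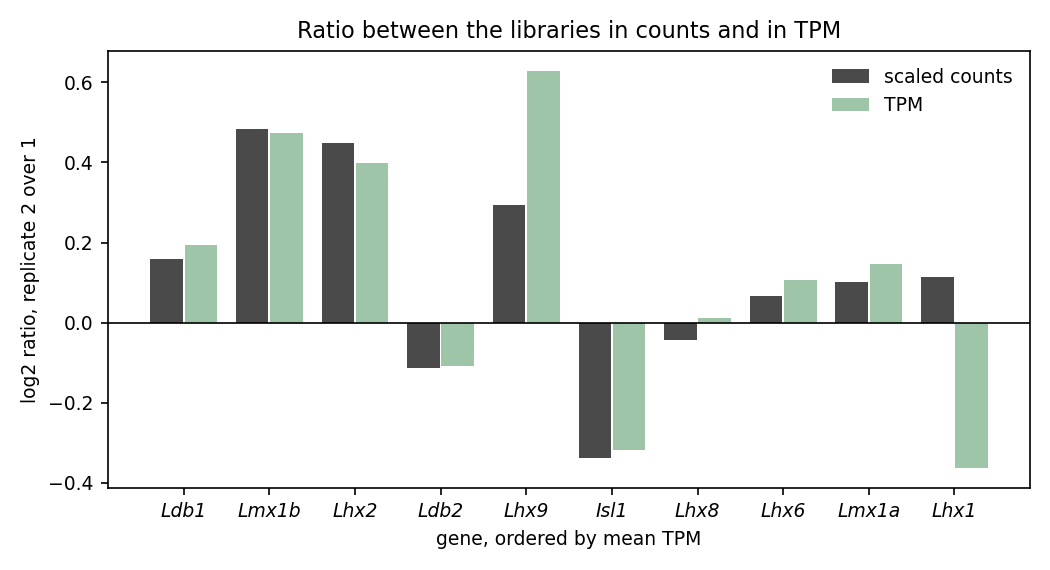
Log2 ratio of replicate 2 over replicate 1 for each gene, from TMM-scaled counts (dark bars) and from TPM (light bars). Lmx1b and Lhx2 have like ratios on both measures, while Lhx9 stands at 0.29 in counts and 0.63 in TPM.

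Lmx1b, Lhx2, Lhx9 and Ldb1 were higher in replicate 2. Lmx1b was 1.40-fold higher in scaled counts (exact binomial test, Benjamini-Hochberg adjusted p = 4.84e-97), Lhx2 1.37-fold (adjusted p = 9.89e-43) and Lhx9 1.23-fold (adjusted p = 3.18e-15). Ldb1 was 1.12-fold higher (adjusted p = 1.95e-56). Isl1 and Ldb2 were lower in replicate 2, by -0.34 and -0.11 on the log2 scale (exact binomial, adjusted p = 0.00606 and 0.000552). Lhx6, Lhx8, Lmx1a and Lhx1 were not called, with adjusted p between 0.684 and 0.906.

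By TPM, Lhx9 was the only one of the 10 past 1.5-fold, at 1.55-fold, against 11.6% of genes that averaged 1 TPM or more. By scaled counts none was past 1.5-fold, against 9.76%. The deposited effective length of Lhx9, which divides the counts to give TPM, was 3080 bases in replicate 1 and 2425 bases in replicate 2, a ratio of 0.787. A short Lhx9 transcript with neither end had 41.8 counts and 0.65 TPM in replicate 1 against 218 counts and 3.75 TPM in replicate 2. The effective lengths of Lmx1b and Lhx2 had ratios of 1.00 and 1.03.

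Other lists differed between the libraries beside these genes. The limb mesenchyme genes were called higher in replicate 2 for 6 of 6, with a median log2 ratio of 0.41, against -0.0049 over all genes tested. The neuron markers were called higher in replicate 1 for 7 of 11 tested, with a median of -0.37, and the endothelial markers for 4 of 6, with a median of -0.17. For the markers of epidermis and hair placode it was 2 of 6, with a median of -0.027. The log2 ratios of Lmx1b, Lhx2 and Lhx9 were 0.48, 0.45 and 0.29, that of Isl1 -0.34 and that of Ldb2 -0.11. Whether the makeup of the dissected tissue played a part in these ratios was not tested.

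**Figure D5:**
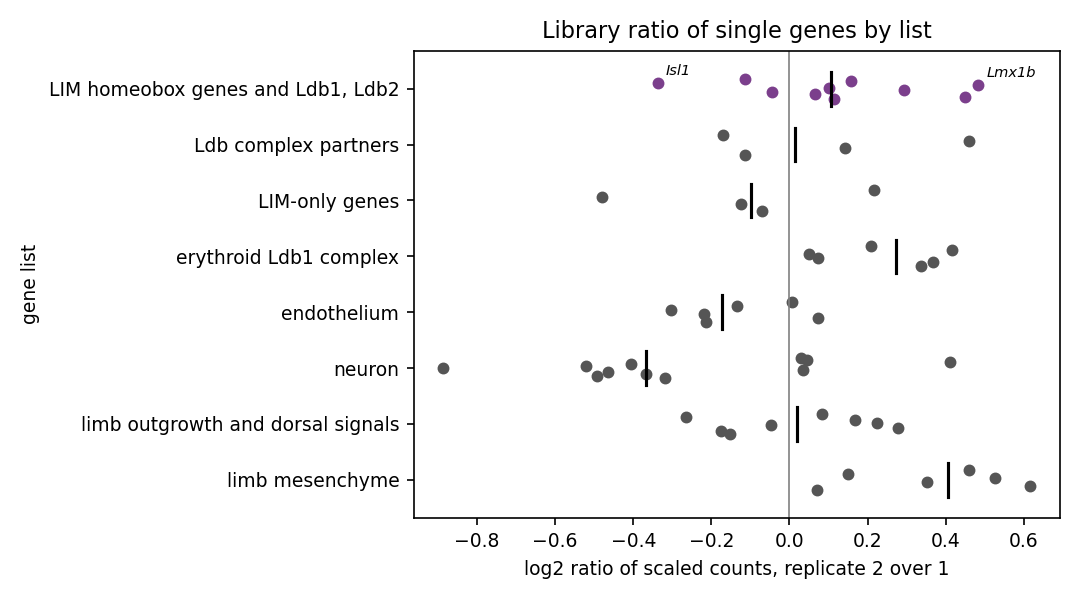
Log2 ratio of scaled counts, replicate 2 over replicate 1, for single genes in 8 lists, with the list median as a black line. The 6 limb mesenchyme genes lie above 0 and the neuron median is -0.37. Among the genes described here, Isl1 is at the left end and Lmx1b at the right.

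Genes listed for limb outgrowth and dorsal signals had a median level of 4.94 TPM, against 5.84 TPM over all protein-coding genes. Of these 8 genes 5 were detected, against 62.8% of protein-coding genes. On average Hand2 stood at 30.1 TPM, Fgf10 at 6.56 TPM, Grem1 at 5.24 TPM, En1 at 5.04 TPM and Wnt7a at 4.85 TPM. Shh, the signal of the posterior limb margin, was at 0.28 and 0.32 TPM, and Fgf4, made in the apical ridge, at 0.47 and 0.55 TPM. Fgf8, the main signal of the ridge, averaged 1.08 ± 0.177 TPM (SD, n = 2) and was under 1 TPM in replicate 1. The means of Lmx1b, Lhx2 and Lhx9 lay above those of each of these genes other than Hand2.

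Across the promoters, 9 of the 10 genes had 14 RefSeq starts. Of these windows 7 held CCAAT and 6 held the GC box, on either strand. None held TATAAA, the TATA box, which 12.3% of all windows hold, and none held TAATTA, a core that homeodomains bind, which 4.84% hold. No match says only that these letters are not in the window.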

How the data were processed

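Polyadenylated RNA above 200 nucleotides from 2 limb libraries was read as stranded paired ends, per the labels. The authors deposited a gene and a transcript table for each, made against mm10 with GENCODE M4 per the text deposited with them. No source used here names the program. Per the file headers the tables hold expected counts, TPM and, in percent, how much of a gene's TPM each transcript takes. Names and coordinates came from GENCODE M21 (GRCm38), and 42462 of 43346 gene rows had a symbol. Rows outside genes (3.73% and 4.30% of counts) were left out.

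Expected counts were rounded and scaled by TMM (edgeR 4.0.16). Libraries were compared by an exact two-sided conditional binomial test (scipy 1.17.1) over genes with at least 10 counts, with Benjamini-Hochberg adjustment at 0.05. Pairs of genes were contrasted by limma 3.58.1 (eBayes with a trend, intercept only) on log2(TPM + 1), over genes that averaged 1 TPM or more or stood in a list, with 95% intervals and no p. The pseudocount of 1 makes such differences understate those of low genes. Levels and transcript shares had no test. The script was checked on simulated counts. The members and lists were chosen with earlier results of these data known. All members are named, and list genes by their highest or undetected members. DESeq2 1.42.0 size factors, other pseudocounts, filters and posterior mean TPM were alternatives.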

Additional observations from a re-analysis of the deposited data

How the results depend on the processing

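Detection of 8 genes held at 0.5 TPM, with posterior mean TPM and in either library alone, and fell to 7 at 2 TPM, where Lhx6 was lost. Of the 14 pairs, 9 intervals excluded 0; the number was 9 with a pseudocount of 0.1, 8 with posterior mean TPM, and 6 both without the filter on low values and with joint intervals. Without the filter the total degrees of freedom of the moderated variances fell from 5.17 to 1.68. The part borrowed from other genes fell from 4.17 to 0.68. Isl1 with Isl2 was then lost as well as the pairs of Lhx9 with Lhx2 and Ldb2. The 6 library calls held with DESeq2 size factors and without the count filter. Past 2-fold by TPM there were 0 genes, against 1 past 1.5-fold. Leading shares moved by more than the spread with posterior means for Lhx8 (60.9%), Lhx6 (31.9%) and Lhx1 (25.3%); the cause was not tested. Leaving out a library gave no binomial test and no count of shared leading transcripts. With only 1 group, no pairing across conditions was possible. The intervals of the gene pairs took the genes of a pair as independent, although both were measured in the same libraries. With 17 counts, Lhx1 is limited by depth.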

Other observations

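The nearest neighbours of the genes within 20000 bases were read in the same tables, and were chosen by distance alone. Lhx1os, annotated 125 bases from Lhx1 on the opposite strand, had 5 and 1 counts in replicates 1 and 2. AI606473, a processed transcript 162 bases from Lhx8 on the opposite strand, had 25 counts in each library, against 260 and 233 for Lhx8. Gm27197, antisense within Lhx2, had 3 and 0 counts. The protein-coding 2310009B15Rik, 3406 bases from Lhx9 on the same strand, stood at 39.8 and 48.2 TPM, above Lhx9 in each library. Rbm18, 10671 bases from Lhx6, stood at 38.8 and 34.1 TPM. C130021I20Rik beside Lmx1b was the most abundant noncoding neighbour in each library.

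Wt1, listed with the kidney and also made in other mesenchyme, had 124 counts in replicate 1 and 47 in replicate 2.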
